A study of Mus musculus with 2 samples.

Results

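Sequencing of immunoprecipitated chromatin (ChIP-seq) was used to map the DNA-binding part of mouse Dux across the genome of C2C12, a mouse myoblast line. The peaks described here are those whose summit, the position of highest fragment pileup, lay inside or within 50 kb of 10 genes known to switch the *Dux* locus and its programme on or off. These genes were listed by name, and a window of the RefSeq gene span plus 50 kb on each side was searched in mm10 coordinates. The search found 17 of the 51356 peaks in the authors' list.

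Cells came from a single monoclonal line with a doxycycline-inducible transgene, MMH, which joins codon-altered mouse Dux up to the end of its homeodomains to the codon-altered carboxy-terminal part of human DUX4. Both libraries carried this transgene and were labelled as doxycycline-treated, and the protocol gives 2 ug/ml for 18 h. One library was precipitated with the DUX4 antisera MO488 and MO489. The control library is labelled as anti-HA, and the header of the peak list also names the control as HA. The text on the series' design speaks of an antibody to GFP instead, a conflict that could not be settled here. The HA label was used. No uninduced cells, no replicate and no measure of gene expression were analysed here, so a peak near a gene says nothing of whether that gene's transcript changed. Per the file headers, 26253175 fragments of the antisera library and 23412256 of the control library remained after removal of duplicates.

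Dux is a double-homeodomain transcription factor that is expressed for a short time in the early mouse embryo. It activates genes of the 2-cell stage together with MERVL, an endogenous retrovirus whose long terminal repeats act as promoters at that stage. In mouse embryonic stem cells the *Dux* repeat array and MERVL are normally held silent by heterochromatin, and the loss of several chromatin proteins lets a programme like that of the 2-cell embryo reappear. The listed genes fall into activators of *Dux*, namely *Dppa2* and *Dppa4*, and repressors of *Dux* or MERVL, namely *Smchd1*, *Trim28*, *Setdb1*, *Kdm1a*, *Chaf1a*, *Chaf1b*, *Rif1* and *Lin28a*. The comparison asks whether the Dux homeodomains sit near genes that in turn control *Dux*, as sites of possible feedback.

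Promoter sequences were available for most of the listed genes. Promoter windows of 300 bases, from 250 before to 50 after a RefSeq gene start in GRCm38.p6, which shares its primary assembly with mm10, were matched for 7 of the 10 genes, all but *Dppa2*, *Dppa4* and *Rif1*. None of the 7 overlapped a peak, and of all 32851 windows 712 did (2.17%), so with 7 windows no difference from that low share could be seen. The sequences of *Kdm1a* and *Chaf1a* are shown because these starts lay nearest to a summit. Those of *Stap2*, a signalling adaptor gene within the *Chaf1a* window, and *Uhrf1*, which encodes a factor that maintains DNA methylation and belongs to a wider list of regulators, are examples of windows that a peak overlapped, and both were chosen after their values were seen. Capitals mark the homeodomain core AATCA or, on the other strand, TGATT.
*Kdm1a* promoter, chr4:136602674-136602973, minus strand: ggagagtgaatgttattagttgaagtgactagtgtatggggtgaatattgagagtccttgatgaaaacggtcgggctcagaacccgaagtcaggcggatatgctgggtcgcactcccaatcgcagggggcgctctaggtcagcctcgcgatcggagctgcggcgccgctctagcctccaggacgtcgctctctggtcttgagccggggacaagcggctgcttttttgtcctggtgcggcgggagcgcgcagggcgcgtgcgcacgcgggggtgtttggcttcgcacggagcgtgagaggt
*Chaf1a* promoter, chr17:56040166-56040465, plus strand: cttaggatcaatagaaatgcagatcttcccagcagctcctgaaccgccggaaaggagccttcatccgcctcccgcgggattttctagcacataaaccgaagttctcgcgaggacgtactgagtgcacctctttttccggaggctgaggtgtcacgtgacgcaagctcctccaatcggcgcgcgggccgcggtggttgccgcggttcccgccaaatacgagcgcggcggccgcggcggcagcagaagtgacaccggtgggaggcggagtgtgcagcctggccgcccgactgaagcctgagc
*Stap2* promoter, chr17:56008087-56008386, minus strand: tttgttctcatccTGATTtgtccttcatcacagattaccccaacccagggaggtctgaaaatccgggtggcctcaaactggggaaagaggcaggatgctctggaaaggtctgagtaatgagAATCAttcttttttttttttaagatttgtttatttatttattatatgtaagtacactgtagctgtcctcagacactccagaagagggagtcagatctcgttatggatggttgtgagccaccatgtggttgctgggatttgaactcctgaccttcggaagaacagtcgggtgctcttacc
*Uhrf1* promoter, chr17:56304063-56304362, plus strand: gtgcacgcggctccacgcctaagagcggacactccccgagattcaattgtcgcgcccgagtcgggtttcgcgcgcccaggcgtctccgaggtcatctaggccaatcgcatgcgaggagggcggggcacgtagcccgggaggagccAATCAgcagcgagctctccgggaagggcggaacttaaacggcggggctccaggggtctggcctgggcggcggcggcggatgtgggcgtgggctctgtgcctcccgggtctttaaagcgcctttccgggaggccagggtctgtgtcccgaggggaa

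The *Kdm1a* and *Chaf1a* windows hold no core, and neither did any of the 7 matched windows. *Stap2* holds TGATT from base 14 and AATCA from base 122, and bases 1 to 237 of its window lay inside the peak, whose summit was 101 bp beyond the window. *Uhrf1* holds AATCA from base 146, and its summit lay at base 42. The core is not present in every such window, since that of *Cbx5*, a heterochromatin gene of the wider list, holds none. A peak overlapped that window only in part, and its summit lay outside, 334 bp upstream of the gene start. Among all 379 windows that held a summit, 302 had the core on either strand (79.7%), against 12162 of all 32851 windows (37.0%). The letters are rich in A and T, and base composition differed between these sets, with a median GC content of 63.3% in the 7 windows, 50.7% in windows that held a summit and 52.7% in all windows. Among the 13943 windows with a GC content of 55.3% or more, the lowest of the 7, the core was found in 91 of the 124 that held a summit (73.4%) and in 21.2% of all.

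Longer sites were rare in every set. The letters TGATTNAATCA, a pair of cores facing each other and the same on both strands, were found in 7 of the 379 windows that held a summit (1.85%) and in 11 of all windows (0.0335%). The letters TAATNNAATCA, searched on both strands, were found in 12 of the 379 (3.17%) and in 115 of all windows (0.350%). Every match to a longer site also holds the core, and no window held both longer sites. Neither was found in the 7 matched promoter windows of the listed genes. These are matches of letters in short windows and not sites of measured contact, and sequences under the 17 peaks themselves were not analysed here.

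A summit lay within 50 kb of 7 of the 10 genes (70.0%, exact binomial 95% interval 34.8 to 93.3%), against 81.2% of all 21900 protein-coding genes. With a −log10 q of at least 5 it was also 7 of 10, against 80.9%, and with peaks at the floor of the local background alone 7 of 10, against 75.4%. The count was thus no higher than the background. The interval treats the genes as separate draws, although they were chosen by name and *Dppa2* and *Dppa4* were counted through the same peak. It therefore describes the count and tests nothing. *Kdm1a* had 6 summits, *Smchd1* 5, *Chaf1a* and *Lin28a* 2 each and *Setdb1* 1, while *Dppa2* and *Dppa4* shared a single summit. *Trim28*, *Chaf1b* and *Rif1* had none. *Kdm1a* and *Smchd1* thus held 11 of the 17 peaks (64.7%), and they were also the 2 genes with a summit inside the gene.

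**Figure D1:**
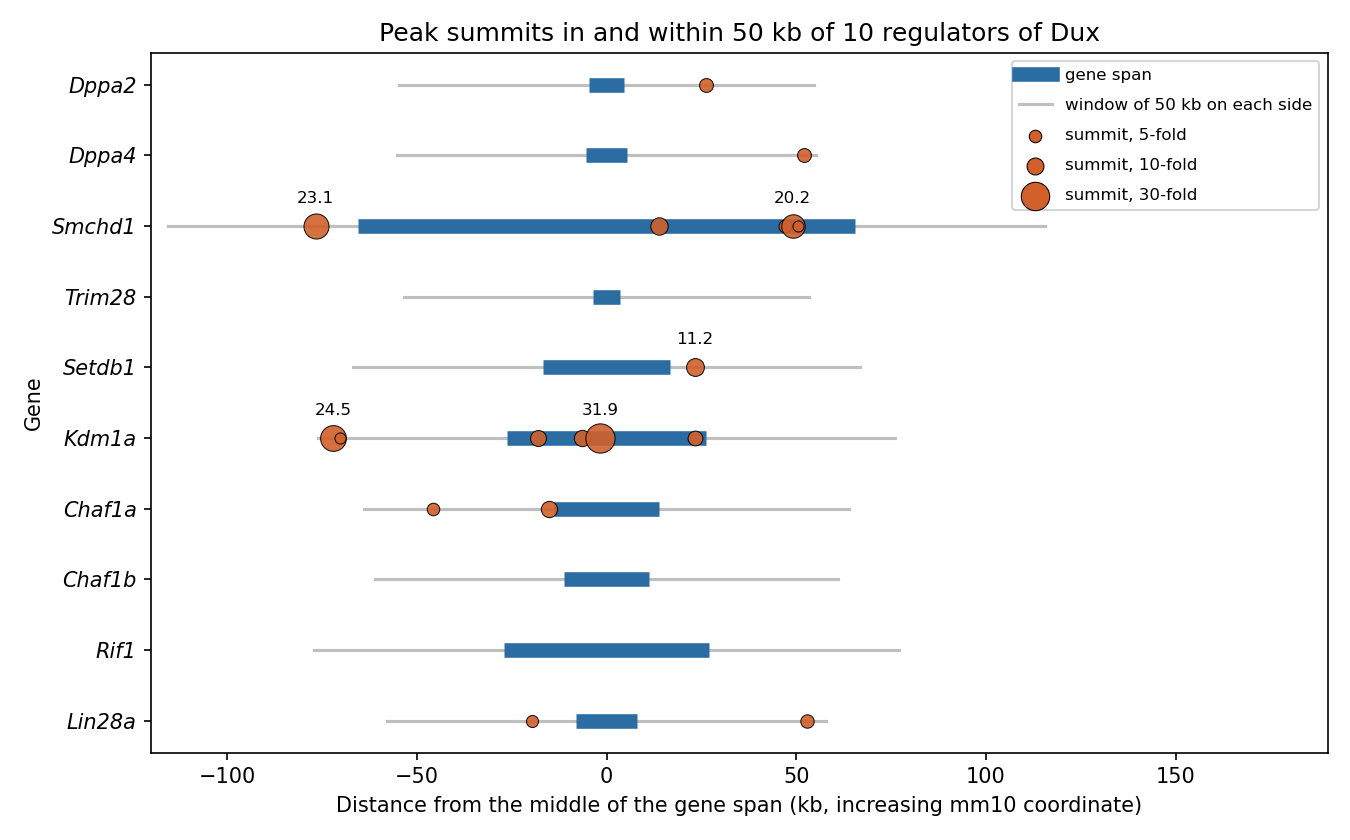
Positions of peak summits (circles, area rising with fold enrichment) around each of the 10 genes, in kb from the middle of the gene span (blue), with the window of 50 kb on each side in grey and values of 11-fold or more printed. The largest circles lie in the windows of *Kdm1a* (31.9 and 24.5) and *Smchd1* (23.1 and 20.2), and 3 genes have no circle.

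Values below are those of the authors' peak caller. The pileup counts the antisera fragments that cover the summit, and fold enrichment is the pileup plus 1 over the local background plus 1. The local background was recovered from both and rests on the control library or, where that is lower, on a genome-wide floor of 4.01 fragments. Intervals of fold enrichment are exact 95% Poisson intervals of the pileup with the background held fixed, so they cover counting error only.

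The activators shared a single weak peak. *Dppa2* and *Dppa4* encode SAP-domain proteins that act as a pair, and in mouse embryonic stem cells they are needed to switch *Dux* on. They are neighbours on chromosome 16, at 48310274 to 48319513 and 48283735 to 48294292, so that their windows overlap. The single peak, at 48340934 to 48341304, lay in no annotated gene, 21630 bp from *Dppa2* and 46851 bp from *Dppa4*. The antisera pileup there was 31 fragments over a background of 4.01, a 6.38-fold enrichment (interval 4.40 to 8.98). That fold was higher than at 34.4% of the peaks in the list. It was higher than at 12.8% of the strongest peaks in the windows of protein-coding genes with a summit. The next summits lay 119689 bp from *Dppa4* on one side and 163672 bp from *Dppa2* on the other, so the pair sits in a stretch with few peaks.

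*Smchd1* encodes a non-canonical protein of the SMC family that acts in X inactivation and represses *Dux* in mouse and the repeat that carries DUX4 in human. It is the longest gene of the 10, at 71344489 to 71475366 on the minus strand of chromosome 17, and 4 of its 5 summits lay inside it. The strongest lay outside, at 71333040 to 71333559, 11195 bp beyond the 3 prime end, with a pileup of 115 fragments over a background of 4.01 and 23.1-fold enrichment (interval 19.1 to 27.7). Its summit fell within the long noncoding RNA gene *4930471L23Rik* and the transcribed pseudogene *Gm4566*. No coding gene lay nearer to it than *Smchd1*.

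The strongest summit inside *Smchd1* stood among 3 summits in close order. At 71458701 to 71459398, 16366 bp downstream of the gene start, the pileup was 110 fragments over a background of 4.49, or 20.2-fold (interval 16.7 to 24.4). The flanking summits, 1935 bp and 1295 bp away, had only 26 and 18 fragments, or 5.39-fold and 3.67-fold, and the second of these was the weakest of the 17 peaks by fold. Across the list, 6.53% of neighbouring summits lay under 2000 bp apart. The strong summit fell within the pseudogene *Gm4707*, which is annotated inside *Smchd1* and was named after its values were seen. Pseudogenes can share reads with their source gene and how such reads were treated is not given here, so the pileups at *Gm4707* and *Gm4566* are uncertain. The fourth summit inside the gene, 51516 bp downstream of the start, had 52 fragments over 4.01, or 10.6-fold (interval 7.95 to 13.8).

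The next 3 genes encode enzymes and a scaffold of gene silencing. *Trim28* encodes the co-repressor that KRAB zinc-finger proteins bring to retroviral sequences, and *Setdb1* encodes the histone methyltransferase that TRIM28 recruits. *Kdm1a* encodes the histone demethylase LSD1, whose loss in mouse embryonic stem cells releases MERVL. These 3 genes covered the range seen here, with 6 summits at *Kdm1a*, 1 at *Setdb1* and none at *Trim28*.

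*Kdm1a* lies at 136550533 to 136602787 on the minus strand of chromosome 4. Its strongest peak, at 136574708 to 136575415, lay inside the gene, 27694 bp downstream of the start. The pileup was 159 fragments over a background of 4.01, a 31.9-fold enrichment (interval 27.2 to 37.2), and this was the highest fold of the 17 peaks and higher than at 94.5% of the list. Against the strongest peak in the window of each protein-coding gene with a summit, it was higher than at 84.3%. By −log10 p, which was 190, the peak ranked 2921 among the 51356. Enrichment of 100-fold or more, found at 83 peaks of the list, was not reached near any of the 10 genes.

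The other 3 summits inside *Kdm1a* were weaker. The summit nearest to the gene start, 2655 bp downstream of it, had 36 fragments over 4.01, or 7.38-fold (interval 5.23 to 10.1). At 32398 bp downstream it was 45 fragments over 4.01, or 9.18-fold, and at 44051 bp it was 57 fragments over a raised background of 5.61, or 8.78-fold. These 3 intervals overlapped one another, so no order among them can be given. The strongest peak lay apart from them, since its lower bound of 27.2 was above their highest upper bound of 12.2.

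Beyond the 3 prime end of *Kdm1a*, a pair of summits 1642 bp apart lay inside *Luzp1*, a leucine-zipper protein gene that overlaps the end of *Kdm1a*. The farther of the pair, at 136504397 to 136504951 and 45854 bp from *Kdm1a*, had 122 fragments over 4.01, or 24.5-fold (interval 20.4 to 29.3), and the nearer had 18 fragments over 4.02, or 3.78-fold. *Luzp1* was the nearer gene for both, and it was singled out after its values were seen. Without that pair *Kdm1a* would have 4 summits, all inside the gene.

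*Setdb1*, at 95323525 to 95357202 on the minus strand of chromosome 3, had a single peak at 95363474 to 95363919. Its summit lay in no annotated gene, 6519 bp upstream of the *Setdb1* start, and no other gene was nearer. The pileup was 55 fragments over a background of 4.01, or 11.2-fold (interval 8.46 to 14.5), which was higher than at 66.9% of the list. Set against the strongest peak in the window of each protein-coding gene with a summit, it was higher than at only 38.2%. Fold enrichment there lay below the 4 summits of 20-fold or more at *Kdm1a* and *Smchd1*, with no overlap of intervals.

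*Trim28*, at 13024152 to 13031032 on chromosome 7, lay farthest from any summit of the 10 genes. The nearest was 139191 bp beyond its end, with 105 fragments over a background of 4.01, or 21.1-fold, and on the other side the nearest was 181389 bp away, inside the zinc-finger gene *Zfp110*, named after its values were seen. Of all protein-coding genes, 95.2% had a summit at a shorter distance. The window of *Trim28* holds 8 other protein-coding genes, and none of their spans held a summit within it.

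Chromatin assembly factor 1 (CAF-1) deposits histones behind the replication fork, and its depletion in mouse embryonic stem cells gives cells like those of the 2-cell embryo. *Chaf1a* and *Chaf1b* encode its large and middle subunits. *Chaf1a*, at 56040416 to 56068026 on the plus strand of chromosome 17, had the summit nearest to a gene start of the whole set, 1435 bp upstream of it, in a peak at 56038784 to 56039369. The pileup was 45 fragments over a background of 4.01, or 9.18-fold (interval 6.75 to 12.2), and no annotated gene was nearer. The second peak in that window, at 56008150 to 56008674, had 24 fragments over 4.01, or 4.99-fold (interval 3.27 to 7.32). It lay 31929 bp upstream of *Chaf1a* and 85 bp outside *Stap2*, the gene whose promoter it overlapped.

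*Chaf1b*, at 93883900 to 93906115 on chromosome 16, had no summit in its window. The nearest lay 84973 bp beyond the gene, inside the tight-junction gene *Cldn14*, with 167 fragments over a background of 4.01, or 33.5-fold, a value above that of any of the 17 peaks. *Cldn14* was named after its values were seen. On the other side the nearest summit was 172826 bp away. The genes of the large and middle subunits, the only CAF-1 genes described here, thus had 2 summits and none. These are values of a single experiment and were not tested against each other.

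The remaining repressors differ in their mode of action. *Rif1* encodes a protein of replication timing and DNA repair that also holds MERVL silent in mouse embryonic stem cells. Its window on chromosome 2, around the gene at 52072815 to 52126769, held no summit. The nearest lay 64979 bp away on one side, inside the giant muscle gene *Neb*, at 4.59-fold, and 66336 bp away on the other, at 7.58-fold. *Neb* too was named after its values were seen.

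*Lin28a* encodes an RNA-binding protein that restrains *let-7* maturation and, in the nucleolus of mouse embryonic stem cells, helps keep *Dux* silent. It lies at 134003330 to 134019196 on the minus strand of chromosome 4, and both of its summits lay inside other genes. The first, at 133991302 to 133991677 and 11823 bp from *Lin28a*, lay in *Dhdds*, of dolichol synthesis, with 22 fragments over 4.01, or 4.59-fold (interval 2.95 to 6.84). The second, at 134063983 to 134064337 and 45026 bp away, lay in *Crybg2*, with 38 fragments over a background of 5.61, or 5.90-fold (interval 4.22 to 8.05). *Dhdds* was named after its values were seen.

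**Figure D2:**
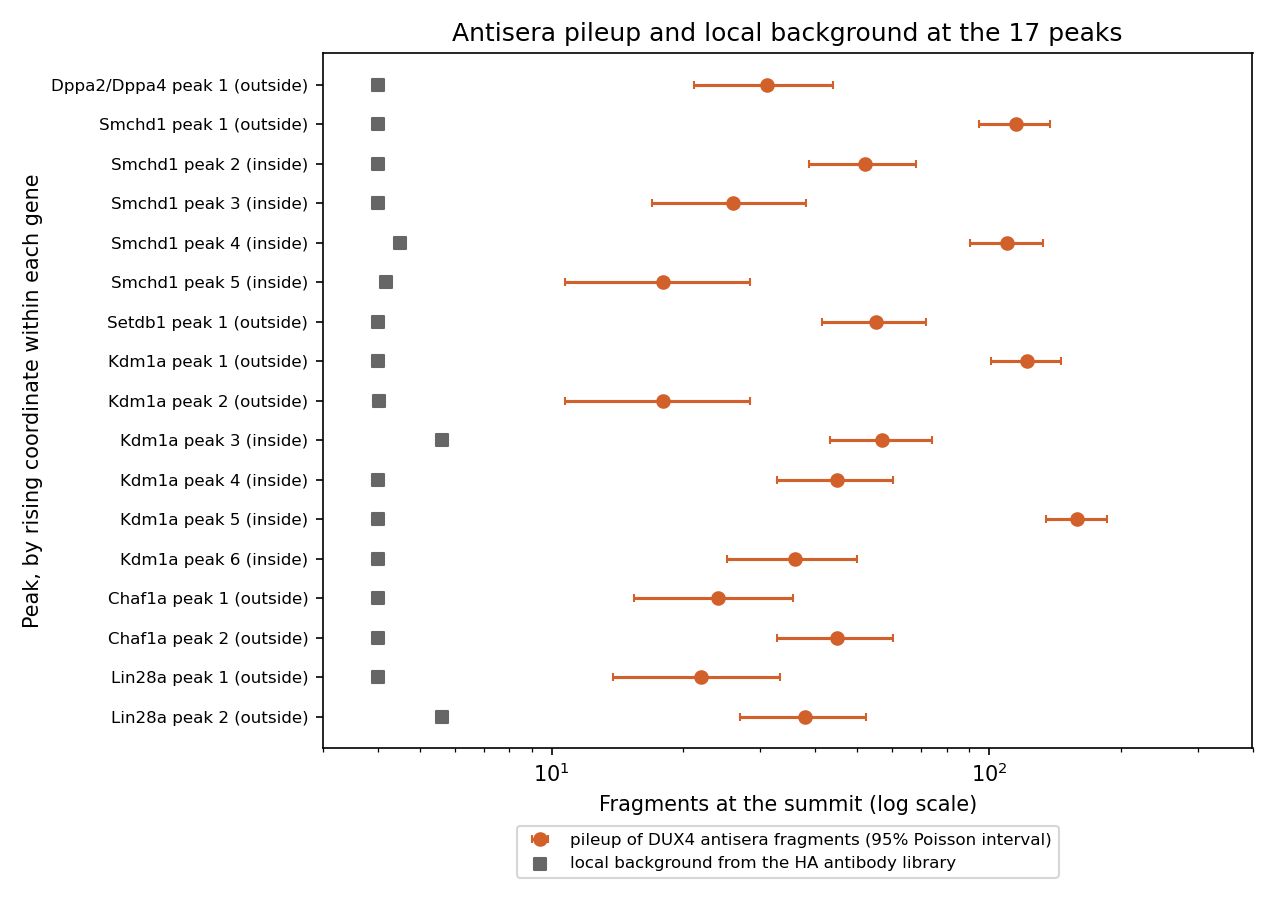
Antisera pileup at the summit (circles, with 95% Poisson intervals) and local background (squares) of the 17 peaks, in fragments on a log axis, by gene and rising coordinate. Pileups run between 18 and 159 fragments, and the background lies between 4.01 and 5.61.

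The 17 peaks were of ordinary strength for the list. Their median fold enrichment was 8.78, against 8.18 for the 33016 peaks within 50 kb of any protein-coding gene and 8.02 for all peaks. Fold enrichment reached 20 or more in 4 of the 17 (23.5%), against 13.7% of all peaks, and stayed under 5 in 4 (23.5%), against 16.5%. Median width was 446 bp against 430 bp. Ordered by fold, the first 4 peaks had overlapping intervals between neighbours, the fifth lay apart from the fourth, and from the fifth down every interval overlapped that of the next.

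*Kdm1a* and *Lin28a* lie on chromosome 4, where the local background exceeded the floor at 43.1% of peaks, against 14.9 to 18.9% on the other chromosomes of the listed genes. That chromosome also had the highest density among them, at 2.42 summits per 100 kb, against 1.66 to 2.20. At the strongest *Kdm1a* peak the background itself was at the floor. Of the 8 peaks at *Kdm1a* and *Lin28a*, 3 had a background above the floor, against 2 of the 9 peaks of the other listed genes, with a median fold of 8.08 against 9.18. What raised the background of chromosome 4 and its part in the number of *Kdm1a* summits were not tested.

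Long windows hold more summits, so the counts were also set against window length. Over the 10 genes the median was 0.910 summits per 100 kb, against 1.59 for all protein-coding genes (middle 50% 0.795 to 2.64). *Kdm1a*, the highest of the 10, had 3.94 per 100 kb, above 90.7% of protein-coding genes. That value includes the pair of summits inside *Luzp1*. *Smchd1* had 2.17, above 67.8%. *Lin28a* (1.73) and *Chaf1a* (1.57) lay near the median. *Dppa2* (0.915), *Dppa4* (0.905) and *Setdb1* (0.748) lay below it. The 10 windows together span 1279120 bp once the overlap at *Dppa2* and *Dppa4* is counted once. They held 1.33 summits per 100 kb, against 1.66 to 2.42 over the whole of the chromosomes that hold them, a difference that was not tested. Windows with no summit were found for 18.8% of protein-coding genes. By length of the window in 5 equal classes, a summit was present in 77.4% of genes in the class of *Trim28*, in 79.6% in that of *Chaf1b* and in 85.4% in that of *Rif1*.

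**Figure D3:**
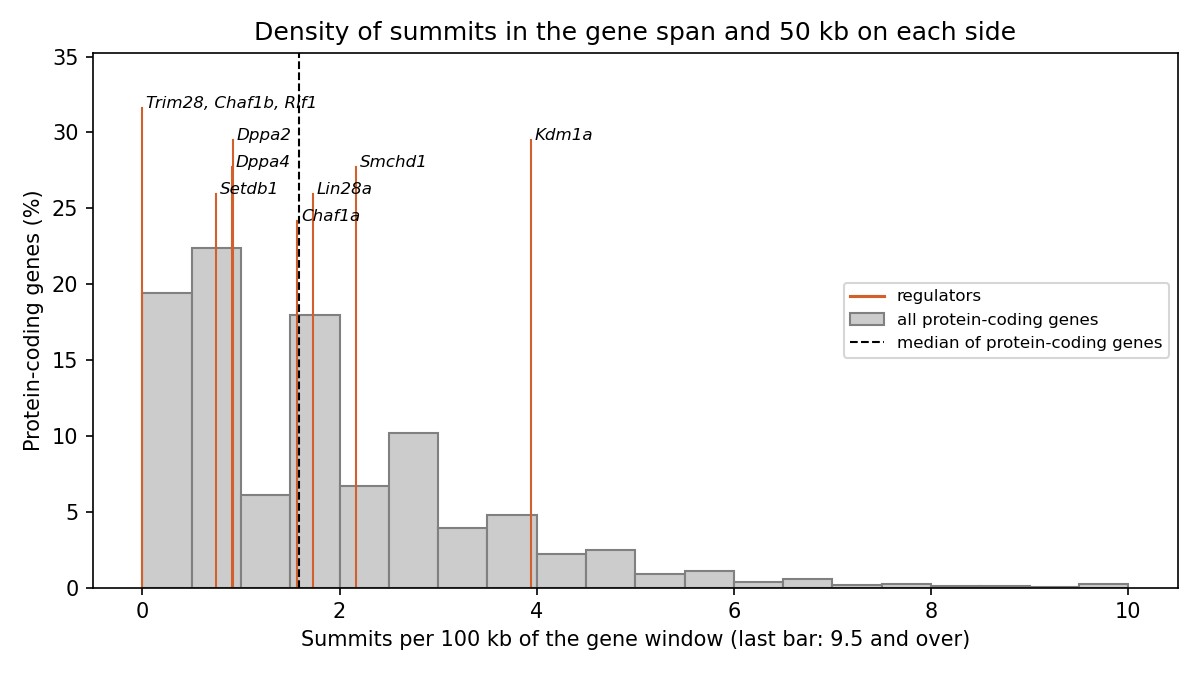
Density of summits in the window of each gene (span plus 50 kb on each side), in summits per 100 kb, for the 10 regulators (orange lines with names) and as a histogram of all protein-coding genes (grey, in percent of genes). *Kdm1a* lies to the right at 3.94, the median of protein-coding genes (dashed) is 1.59, and *Trim28*, *Chaf1b* and *Rif1* lie at 0.

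The share of listed genes with a summit depended on the distance allowed and lay below that of all protein-coding genes at distances up to 100 kb. It was 2 of 10 inside the gene (background 32.3%), 3 of 10 within 5 kb (43.2%), 5 of 10 within 20 kb (62.3%) and 9 of 10 within 100 kb (92.1%). Within 1 kb of either gene end the count was 0 of 10, against 7.47% of all protein-coding genes. With 10 genes the intervals are wide, 6.67 to 65.2% at 5 kb, and a difference from the background was not tested. Just inside the limit of 50 kb lay the summits at 46851 bp from *Dppa4*, 45854 bp from *Kdm1a* and 45026 bp from *Lin28a*. Just outside it lay those at 57550 bp from *Smchd1* (15.6-fold), 62402 bp from *Setdb1* (5.59-fold) and 63889 bp from *Kdm1a* (4.79-fold).

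Other regulators of *Dux*, MERVL and their heterochromatin were described as a list of 60 genes, which includes partners of the proteins above, Polycomb, DNA methylation and SUMO pathway genes, histone chaperones and activators. A summit lay within 50 kb of 7 of the 10 genes above, of 54 of these 60 (90.0%, exact interval 79.5 to 96.2%) and of 81.2% of protein-coding genes. Within 5 kb of the gene it was 3 of 10 and 40 of 60 (66.7%, interval 53.3 to 78.3%), against a background of 43.2%. The list of 60 was chosen with earlier results of these data known and includes the 2-cell genes *Zscan4c* and *Zscan4d*. These intervals are therefore descriptive, and no enrichment was tested. Gene spans had a median of 24914 bp for the 10 genes, 27744 bp for the 60 and 17146 bp for all protein-coding genes, so the background is not that of genes of like length. Per window length the median of the 60 was 1.90 summits per 100 kb, against 1.59.

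By role, a summit lay within 5 kb of 8 of 9 histone chaperones and remodellers, 5 of 6 DNA methylation genes, 7 of 11 Polycomb genes and 7 of 11 genes of SETDB1 and TRIM28 heterochromatin. It did so for 3 of 6 partners of KDM1A, 2 of 5 SUMO pathway genes, 4 of 5 activators and 2-cell factors and 4 of 7 others. The share of all protein-coding genes was 43.2%, with no allowance for gene length. The classes are small, and no difference by role was tested. The highest fold enrichment within 5 kb was 178 at *Zscan4c* and 138 at *Zscan4d*, copies of a 2-cell family whose reads may not be told apart. *Supt16*, a subunit of the histone chaperone FACT, followed at 32.9. *Ehmt1*, a partner of the methyltransferase G9a, had 30.5, and *Hdac1*, the deacetylase that works with KDM1A, had 26.5. *Zmym2*, a zinc-finger partner of the KDM1A complex, had 23.1, with 12 summits in its window and 6.82 per 100 kb, above 98.9% of protein-coding genes. *Smarcad1*, a chromatin remodeller, had 20.9, *Tet2*, a methylcytosine dioxygenase, 18.6, *Hira*, a histone chaperone, 17.6 over a background of 5.61, and *Cbx5*, a heterochromatin protein, 17.6. The strongest *Kdm1a* peak, at 31.9, thus lay between *Supt16* and *Ehmt1*, whose values are both within its interval of 27.2 to 37.2. A density like that of *Zmym2* was also found at other regulators, with 7.13 summits per 100 kb at *Resf1*, 6.78 at *Ythdc1* and 6.66 at *Uhrf1*. *Resf1* and *Ythdc1* were named after their values were seen.

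Promoter windows of 54 of these 60 genes were matched, 72 windows in all, and 5 overlapped a peak (6.94%, against 2.17% of all windows, a difference that was not tested). These were the windows of *Ezh2*, *Zscan4c*, *Zscan4d*, *Cbx5* and *Uhrf1*, of which *Ezh2* was named after its values were seen. The summit itself lay in the window for *Zscan4c*, *Zscan4d* and *Uhrf1*. At *Uhrf1*, which has more than 1 annotated start, the summit was 209 bp upstream of the start used for this window. That start, at 56304313, lies within the gene span of 56303337 to 56323486, and so did the summit, at 56304104. The pileup was 27 fragments over a background of 4.01, or 5.59-fold. The core was present in 21 of the 72 windows (29.2%, against 37.0% of all windows) and the longer sites in 0. Base composition of the 72 windows was not compared. Among all windows with a GC content of 55.3% or more, the core share was 21.2%.

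**Figure D4:**
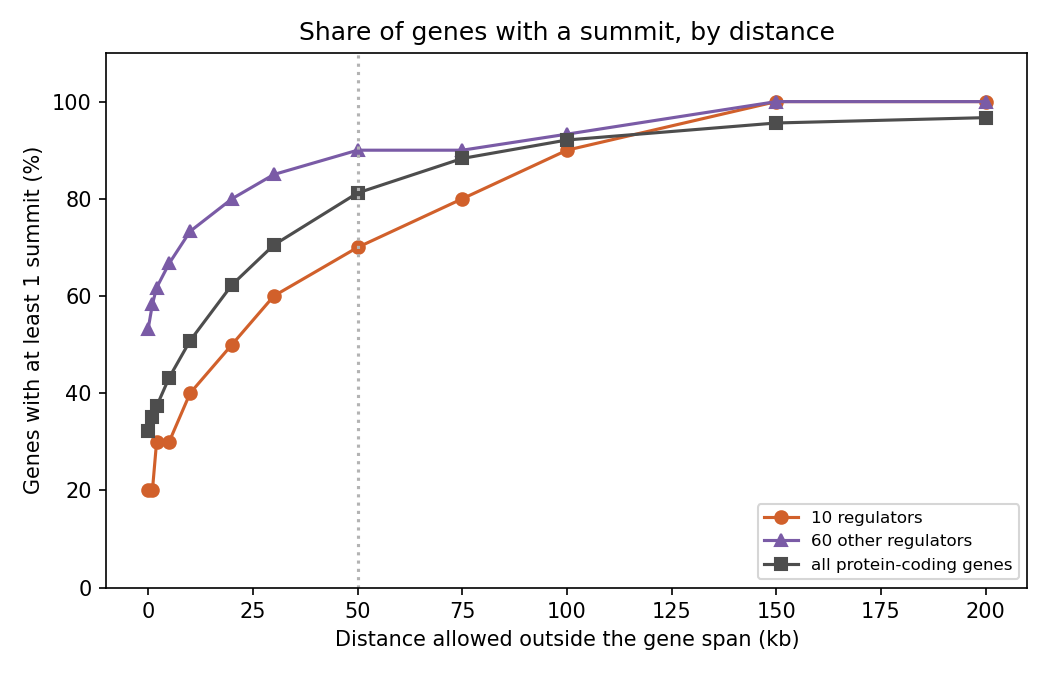
Share of genes with at least 1 summit (in percent) by the distance allowed outside the gene span (in kb), for the 10 regulators, the 60 other regulators and all protein-coding genes. At 50 kb (dotted line) the shares are 70.0%, 90.0% and 81.2%.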

How the data were processed

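Chromatin of 1 induced C2C12 clone with the MMH transgene was sonicated to fragments of 150 to 600 bp, per the labels' protocols. Samples were grouped by their antibody label, which gives 1 library per group. The submitters' processing notes name BWA, MACS2 and mm10. Peaks were called once by the authors with MACS version 2.1.0.20151222, per the file headers, from read pairs, with the HA library as control, at a q-value threshold of 0.01 and at most 1 fragment per position, after 20% and 42% of fragments were found redundant. How reads were filtered, and how those with several possible positions were placed, is not given here. The deposited pileup is a signal in fragments, fold enrichment is a deposited ratio with a pseudocount of 1, and the authors' −log10 p and −log10 q values were used only to rank and select peaks. Positions, used as deposited, are in mm10.

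The local background was recovered as the pileup plus 1, divided by the fold, minus 1. Recomputed Poisson −log10 p values matched within 1% for 100% of 50196 peaks with a finite value. The floor of 4.01 fragments was shared by 78.0% of peaks (tolerance 0.001). Gene spans were taken from RefSeq annotation of GRCm38.p6, with 21900 positioned protein-coding genes, and all 10 listed genes and 60 other regulators were matched. Strand and gene starts came from the RefSeq promoter table. With 1 library per group no test was made, and counts, medians and percentiles are set beside those of all protein-coding genes. Percentiles count ties by their middle rank. The listed genes and the list of 60 were chosen with earlier results of these data known. Named genes were the listed genes, any gene nearer to a listed gene's strongest peak, and the 10 of the 60 with the highest fold within 5 kb, and exceptions are marked where they stand. Counting was tested on simulated data. Python 3.11.15, pandas 2.3.3, numpy 2.4.6 and scipy 1.17.1 were used. Alternatives were other distances, a −log10 q of at least 5, the strongest 10% of peaks by −log10 p, peak overlap in place of the summit, peaks at the background floor, and removal of chromosome 4 or of single genes.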

Additional observations from a re-analysis of the deposited data

How the results depend on the processing

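With 1 library per group, 1 clone and 1 call of peaks, no value here has a replicate check, and intervals cover counting error only. The distance allowed set the counts of listed genes and peaks: 3 genes and 9 peaks within 5 kb, 2 and 8 inside the span, with 2.20 summits per 100 kb, and 32 peaks within 100 kb. At 1 kb of either end the count of genes was 0. Among the strongest 10% of peaks by −log10 p, 1 listed gene (*Kdm1a*), 2 peaks, a median fold of 28.2 and 0.156 summits per 100 kb were left, against a background of 21.2% of protein-coding genes, and 12 of the 60 other regulators. Of these 2 peaks, the 24.5-fold peak lay inside *Luzp1*, 45854 bp from *Kdm1a*. Inside the span 32 of the 60 had a summit (53.3%), against 32.3% of all protein-coding genes. Median spans were 27744 bp and 17146 bp, so these shares are not those of genes of like length. Leaving out the genes on chromosome 4 left 9 peaks, with a median fold of 9.18. Leaving out *Kdm1a*, chosen after seeing the data, left 11, with a median fold of 6.38. By construction each setting changes which peaks, genes or bases are counted, and causes of these changes were not tested. A −log10 q of at least 5, overlap in place of the summit and peaks at the background floor gave 7 listed genes each and 16, 17 and 12 peaks. No paired analysis was possible because each group has 1 library.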
